A study of Danio rerio with 16 samples.

Results

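Genes that drive entry into mitosis and exit from it were followed in wild-type zebrafish, by RNA sequencing, over 7 libraries of embryos, larvae and adult body parts. The 10 genes were chosen by symbol: the cyclin genes ccne2, ccna2, ccna1, ccnb1 and ccnb2, the kinase genes cdk1, plk1 and aurkb, the aurkb partner cdca8 and the anaphase activator cdc20. All 10 were found among the 28364 gene IDs that the 2 annotations used in the series share. The groups were 1 library of a 16-36 hpf (hours post fertilization) embryo pool, 1 of whole larvae 5 days old, 1 of the entire adult head, 1 of the entire adult tail, and 3 samples of whole embryos at 24 hpf. All animals were wild type and of the AB strain, and the labels give neither the sex of the adults nor how many animals a library holds. The pool is labelled 16-36 hpf in its title and 16 somites to 24 hpf in its stage.

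Cyclins are regulatory subunits that switch on cyclin-dependent kinases at set points of the cell cycle. Cyclin E acts at the start of DNA replication, cyclin A during replication and on the way into mitosis, and cyclin B with Cdk1 at entry into mitosis. Polo-like kinase 1 and Aurora B, the kinase of the chromosomal passenger complex, then act on spindle, kinetochores and cell division, and Cdc20 turns on the anaphase-promoting complex, which marks cyclins for destruction. These transcripts are low in cells that no longer divide. Oocytes also store such transcripts, and an egg carries out its first divisions from maternal RNA.

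Reads counted on genes came to 11045403 in the pool, 8532429 in larvae, 8017208 in head and 8376307 in tail, against 40899061 to 44962951 at 24 hpf. Levels below are CPM (counts scaled to library size with TMM factors) unless FPKM is named. FPKM, the authors' deposited value per kilobase of transcript, is the scale used to compare one gene with another. The p-values are from edgeR's quasi-likelihood test of each group against 24 hpf, adjusted over 21128 tested genes, and a gene is called at an adjusted p under 0.05. The lone library of each group was assumed to vary like the 3 samples of 24 hpf, the only replicates. Nothing in the labels says that these 3 came from separate clutches, so the spread behind the p-values is that of these samples and may be technical. The rod opsin gene rho, a retinal marker, stood at 3810 CPM in the head and 0.337 in the tail, and the muscle gene ckmb at 3796 and 4703. The muscle genes mylz2 and actc1b went the other way, at 2521 and 3631 CPM in the head and 2045 and 3050 in the tail. The library labelled tail also carried the transcripts of oocytes, given with the tail results, and the yolk protein gene vtg2 stood at 14052 CPM there and at 4696 in the head, against 0.215 ± 0.115 at 24 hpf (SD, n = 3).

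The 10 genes fell into 4 patterns of level. In 7 of them, ccna2, ccnb1, ccnb2, plk1, aurkb, cdca8 and cdc20, the tail was highest, followed by 24 hpf, the pool, the larva and the head. In this order the pool was not separated from 24 hpf by the test for any gene, nor the tail from 24 hpf for aurkb and cdca8. The kinase gene cdk1 was highest at 24 hpf, with the tail beside the pool. The cyclin E gene ccne2 was also highest at 24 hpf, with the tail next to the head at the bottom. The cyclin A1 gene ccna1 was at a few counts everywhere but the tail.

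**Figure D1:**
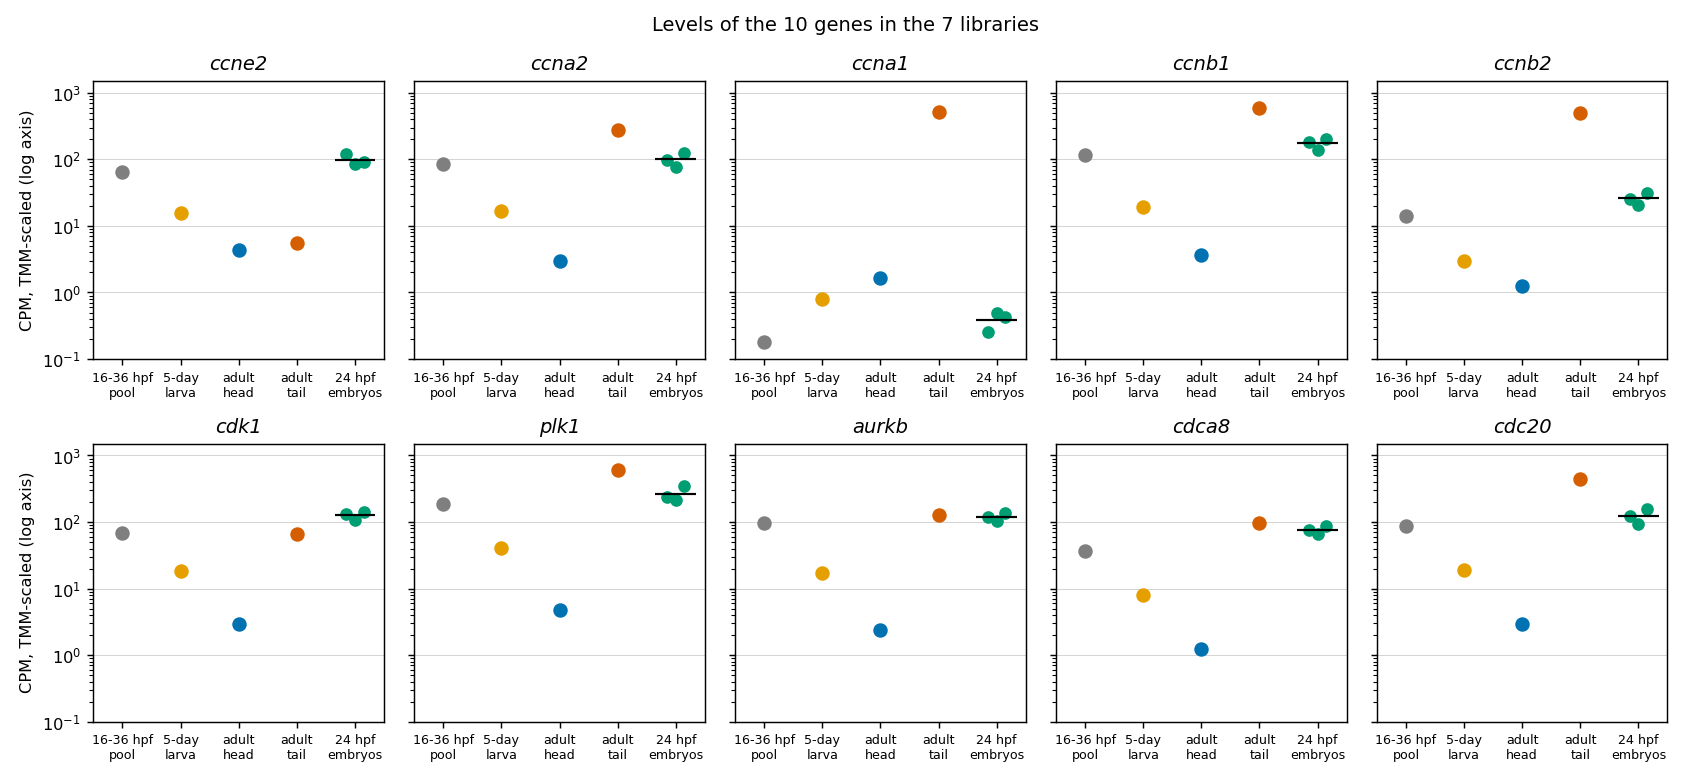
Level of each of the 10 genes in CPM (log axis) in the pool, larva, head and tail, 1 library each, and in the 3 samples of 24 hpf embryos, whose mean is the black line. The head lies lowest for every gene except ccna1, and the tail lies above all 24 hpf samples for 7 genes but near the head for ccne2 (5.51 CPM in the tail, 4.30 in the head).

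The genes differed from each other in abundance within each group. On the FPKM scale plk1 was the most abundant of the 10 in the pool, larva and head, at 142, 35.6 and 5.88 FPKM, and in samples 2 and 3 of 24 hpf, at 67.8 and 96.3. In the tail ccnb1 led with 669 FPKM, ahead of plk1 with 533, ccna1 with 324, ccnb2 with 281, cdc20 with 240.3 and ccna2 with 212. The tail had 72.5 FPKM of cdca8, 52.3 of aurkb and 35.5 of cdk1, and 2.22 of ccne2. Summed over the 10 genes, FPKM came to 496 in the pool, 114 in larvae, 22.1 in head and 2422.5 in tail, against 446, 395 and 488 in the samples of 24 hpf.

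Cdk1 is the catalytic partner of cyclins A and B at entry into mitosis. The cdk1 gene (ENSDARG00000087554, Zv9 chromosome 17, 20753843 to 20759613) had 69.5 CPM in the pool, 18.2 in larvae, 2.94 in head and 65.1 in tail, against 134, 108 and 143 CPM in the samples of 24 hpf. None of the 4 single libraries reached the 24 hpf range. The difference from 24 hpf was -2.82 on the log2 scale in the larva (SE 0.34, adjusted p = 0.000886), -5.45 in the head (SE 0.41, adjusted p = 9.61e-05) and -0.98 in the tail (SE 0.30, adjusted p = 0.0273), so cdk1 fell in all 3. The tail and the pool did not differ beyond counting error, at a ratio of 0.937 (exact 95% counting interval 0.839 to 1.04). Such intervals cover counting error only.

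Cyclin B1 is the main mitotic partner of Cdk1. The ccnb1 gene (ENSDARG00000051923, chromosome 5, 55149483 to 55153246) had 116 CPM in the pool, 19.04 in larvae, 3.67 in head and 597 in tail, against 181, 140.3 and 202 CPM at 24 hpf. The tail stood above every 24 hpf sample and the other 3 libraries below every one. In the tail it rose by 1.77 (log2; SE 0.27, adjusted p = 0.00183), and in the head it fell by 5.57 (SE 0.44, adjusted p = 0.000111). Against cdk1 its FPKM was 2.81 times as high in the pool, 1.79 in larvae, 2.77 in head and 18.8 in tail, and 1.29 ± 0.0745 times at 24 hpf (SD, n = 3). The annotated interval of ccnb1 differs at 24 hpf and that of cdk1 does not. In CPM, ccnb1 and cdk1 stood at 0.662 and 0.541 times their 24 hpf means in the pool and 0.109 and 0.142 in larvae. They stood at 0.0210 and 0.0228 in the head, and 3.42 and 0.507 in the tail.

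Cyclin B2 is the second B-type cyclin of somatic cells. The ccnb2 gene (ENSDARG00000036180, chromosome 7, 31962885 to 31967624) had 14.1 CPM in the pool, 2.94 in larvae, 1.26 in head and 498 in tail, against 25.7, 20.6 and 31.2 CPM at 24 hpf. The tail stood alone above the 24 hpf range, at 19.3 times the 24 hpf mean, and the other 3 libraries lay below it. In the test ccnb2 rose by 4.27 there (log2; SE 0.28, adjusted p = 6.14e-05). The FPKM of ccnb2 as a multiple of ccnb1 was 0.0778 in the pool, 0.0996 in larvae, 0.155 in head and 0.420 in tail, and 0.152 ± 0.00576 at 24 hpf. On this scale the tail lay outside the 24 hpf range of 0.146 to 0.157, and so did the pool and the larva, on the low side. Both genes have another annotated interval at 24 hpf, and whether it bears on this ratio was not tested. In CPM, ccnb2 and ccnb1 stood at 0.545 and 0.662 times their 24 hpf means in the pool and 0.114 and 0.109 in larvae. The head stood at 0.0487 and 0.0210, and the tail at 19.3 and 3.42. The low ratio of the larva was thus seen in FPKM only.

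Cyclin A1 is a germline cyclin, needed in male meiosis in mouse and stored in the egg in Xenopus. The ccna1 gene (ENSDARG00000043236, chromosome 10, 35931773 to 35939422) had 2 counts in the pool, 8 in larvae, 16 in head and 4635 in tail, against 9, 18 and 15 counts at 24 hpf. In CPM these were 0.182, 0.810, 1.68 and 521, against 0.252, 0.497 and 0.424 at 24 hpf. The tail was 1333 times the level of the summed 24 hpf samples (exact 95% counting interval 984 to 1851), and the head 4.29 times (2.25 to 7.79). Larva and pool did not differ from 24 hpf beyond counting error, with intervals of 0.840 to 4.47 and 0.0546 to 1.79. At 24 hpf ccna1 was under the level of the filter on low counts (0.92 CPM before TMM scaling) and passed it through the single libraries, so its differences are given as a description, with no test, and it is left out of the counts of called genes below.

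Cyclin A2 is the A-type cyclin of dividing somatic cells. The ccna2 gene (ENSDARG00000011094, chromosome 14, 49305383 to 49309673) had 85.7 CPM in the pool, 16.7 in larvae, 2.94 in head and 276 in tail, against 97.5, 77.8 and 126 CPM at 24 hpf. The pool lay inside the 24 hpf range and the tail above it. In the tail ccna2 rose by 1.46 (log2; SE 0.30, adjusted p = 0.00636). On the FPKM scale ccna1 stood at 1.53 times ccna2 in the tail, 0.564 in the head, 0.0527 in the larva and 0.00378 in the pool, against 0.00258 ± 0.00118 at 24 hpf. This ratio leaves out the annotated copy CCNA2 (2 of 2), which had 208 FPKM in the tail.

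Cyclin E2 acts with Cdk2 at the start of replication rather than in mitosis. The ccne2 gene (ENSDARG00000027918, chromosome 16, 43241773 to 43250825) had 64.2 CPM in the pool, 15.7 in larvae, 4.30 in head and 5.51 in tail, against 119.9, 85.6 and 91.1 CPM at 24 hpf. All 4 single libraries lay below the 24 hpf samples. It fell by 4.16 in the tail (log2; SE 0.40, adjusted p = 0.000277) and by 4.52 in the head (SE 0.41, adjusted p = 0.000187). Tail and head did not differ beyond counting error, at a ratio of 1.28 (0.829 to 1.99). The cyclin E1 gene, ccne in the files and ccne1 in RefSeq, stood at 106 CPM in the tail and 23.2 ± 3.01 at 24 hpf (log2 change 2.19, SE 0.26, adjusted p = 0.000578).

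**Figure D2:**
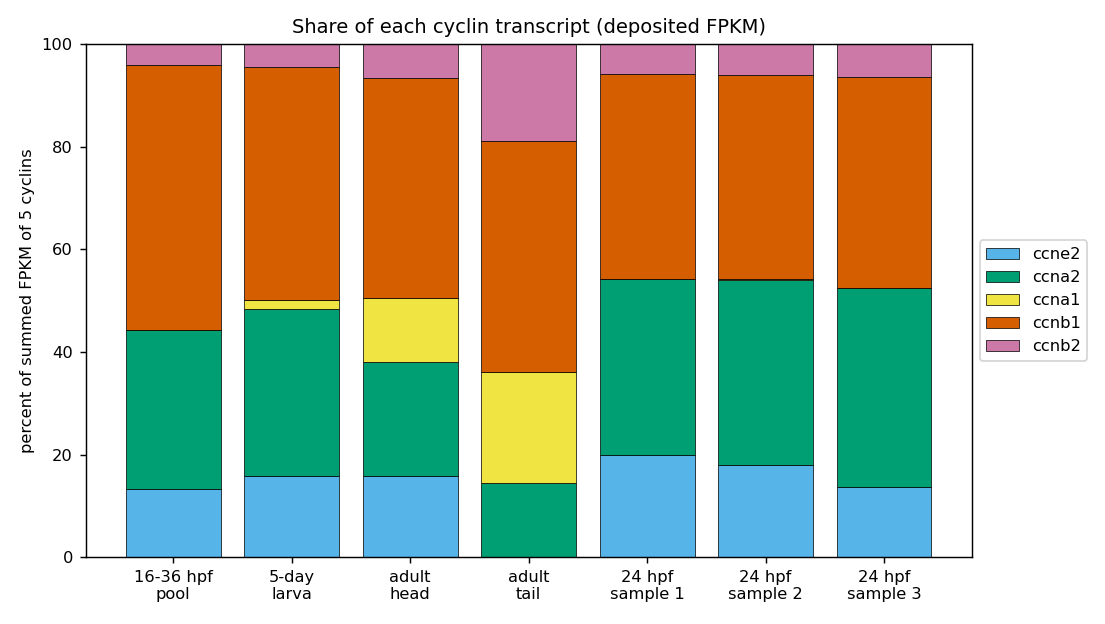
Share of each of 5 cyclin genes in their summed deposited FPKM (percent) in the pool, larva, head and tail and in the 3 samples of 24 hpf embryos. In the tail ccna1 and ccnb2 took 21.7% and 18.9% and ccne2 0.149%, while at 24 hpf ccna1 took 0.0940%, ccnb2 6.12% and ccne2 17.2% on average.

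Of the summed FPKM of the 5 cyclins, ccnb1 held the largest share in every library: 51.6% in the pool, 45.3% in larvae, 42.9% in head and 45.0% in tail, against 40.3% ± 0.709 at 24 hpf. The share of ccna2 was 30.9% in the pool, 32.7% in larvae, 22.1% in head and 14.3% in tail, against 36.3% ± 2.33 at 24 hpf. In the head ccna1 made up 12.5%, on a total of 10.98 FPKM for the 5 cyclins. That total was 1488 FPKM in the tail. The annotated intervals of ccnb1, ccnb2 and ccna1 differ at 24 hpf, and whether this bears on the shares there was not tested.

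Polo-like kinase 1 acts from entry into mitosis to cell division. The plk1 gene (ENSDARG00000058471, chromosome 1, 8229224 to 8237927) had 185 CPM in the pool, 40.2 in larvae, 4.72 in head and 605 in tail, against 235, 213 and 353 CPM at 24 hpf. The tail was above and the other 3 below all samples of 24 hpf, whose coefficient of variation for plk1 was 28.1%. It fell by 5.82 in the head (log2; SE 0.52, adjusted p = 0.000169), and in the tail it rose by 1.18 (SE 0.33, adjusted p = 0.0200).

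Cdc20 turns on the anaphase-promoting complex at the end of metaphase. The cdc20 gene (ENSDARG00000020192, chromosome 2, 19218015 to 19234798) had 87.5 CPM in the pool, 18.7 in larvae, 2.94 in head and 449 in tail, against 125, 92.7 and 156 CPM at 24 hpf. Again the tail stood above the 24 hpf range and the other 3 libraries below it. It rose by 1.85 in the tail (log2; SE 0.31, adjusted p = 0.00256) and fell by 5.40 in the head (SE 0.50, adjusted p = 0.000192).

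Aurora B and borealin, the product of cdca8, sit together in the chromosomal passenger complex. The aurkb gene (ENSDARG00000037640, chromosome 14, 2646 to 7578) had 98.1 CPM in the pool, 17.4 in larvae, 2.41 in head and 125 in tail, against 121, 102.99 and 138 CPM at 24 hpf. The cdca8 gene (ENSDARG00000043137, chromosome 19, 49493919 to 49504238) had 36.5 CPM in the pool, 8.10 in larvae, 1.26 in head and 97.3 in tail, against 76.7, 66.03 and 87.7 CPM at 24 hpf. The tail was inside the 24 hpf range for aurkb and just above it for cdca8, and neither gene passed edgeR's test there, with log2 changes of 0.06 (SE 0.28, adjusted p = 0.881) and 0.34 (SE 0.28, adjusted p = 0.327). In the head both fell, by 5.64 and 5.93 on the log2 scale (SE 0.42 and 0.45, adjusted p = 9.27e-05 and 9.41e-05).

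**Figure D3:**
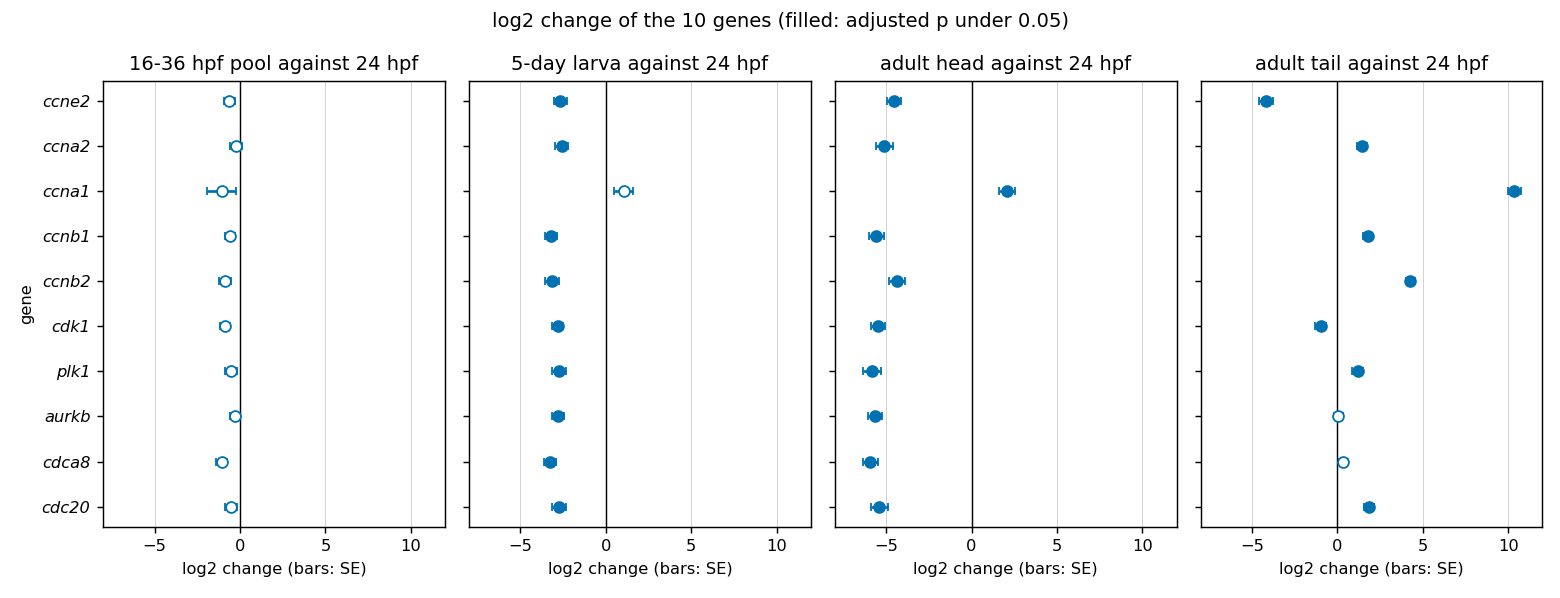
Fitted log2 change of each of the 10 genes in the pool, larva, head and tail against 24 hpf embryos, with SE bars and filled points for an adjusted p under 0.05, which for ccna1 is no test because it passed the filter on low counts through the single libraries. In the larva and head all genes but ccna1 lie between -2.59 and -5.93, while the tail spreads from -4.16 for ccne2 to 10.36 for ccna1.

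In the larva all 9 genes other than ccna1 were called lower than at 24 hpf, where 23.9% of all tested genes were called lower and 50.4% in either direction. Of the 17139 tested genes that, like these 9, reached the filter level at 24 hpf, 29.4% were called lower and 19.6% higher. Their median log2 change was -0.35, beside -2.79 for the 9. The larva lay below all 3 samples of 24 hpf for 9 genes, as for 42.6% of all tested genes, and above them for ccna1, as for 43.5%. The median log2 change of the 10 was -2.76, beside -0.02 over all tested genes. The 9 falls lay close together, from 6.01-fold for ccna2 to 9.48-fold for cdca8, with adjusted p from 0.000641 to 0.00220 in edgeR's test. Against the pool, which shares the annotation of the larva and has a similar depth, 8 of the 10 were at least 4-fold lower in the larva, as were 4.59% of genes with a count in either library. Of the other two, cdk1 was 3.81-fold lower and ccna1 had 8 counts in the larva and 2 in the pool. Fewer dividing cells and less of these RNAs per cell cannot be told apart in whole animals.

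In the head all 9 genes other than ccna1 were called lower, where 30.4% of all tested genes were called lower, 32.2% higher and 62.6% in either direction. Of the 17139 tested genes that reached the filter level at 24 hpf, 37.4% were called lower and 22.4% higher. Their median log2 change was -0.51, beside -5.45 for the 9. The same 9 lay below all 3 samples of 24 hpf, as did 44.5% of all tested genes, and ccna1 above them, as did 45.2%. The median log2 change of the 10 was -5.43 beside -0.01 over all tested genes. The falls ran from 20.5-fold for ccnb2 to 61.05-fold for cdca8. The head held 12 to 45 counts of each gene. Relative to the larva, the head was lower in 9 of 10 genes, from 2.33-fold for ccnb2 to 8.52-fold for plk1, and 7 of these differences reached 4-fold, as did 6.17% of genes with a count in either library. None was at least 4-fold higher in the head, where 8.29% of genes were. Relative to the pool, the head was at least 4-fold lower for 9 of 10 (11.7% of genes) and at least 4-fold higher for ccna1 (21.7%), with the falls between 11.2-fold for ccnb2 and 40.7-fold for aurkb. Of 14 listed lymphoid and other blood cell markers, 11 were called higher and 2 lower in the head, 7 and 2 in the tail, and 2 and 3 in the larva. The lower call of LCP1 in the larva goes against its FPKM, 2.79 there against 1.57 ± 0.461 at 24 hpf. In the head LCP1 had 14.7 FPKM, while lcp1, another entry of that name, was among the 2 called lower. Of the 14, 4 were under the filter level at 24 hpf, and all 4 are among those called higher in the head and the tail. The list summed to 40.5 CPM in the pool, 35.8 in larvae, 489 in head and 67.1 in tail, against 44.8 to 58.2 CPM at 24 hpf, and the head held 276 CPM of the recombination gene rag1. None of the 14 was at 0 in the head, nor in the larva or the tail, while 1 was in each sample of 24 hpf and 2 were in the pool. The part of these cells in the head values of the 10 genes was not tested.

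In the tail, of the 9 genes other than ccna1, 5 were called higher (ccna2, ccnb1, ccnb2, cdc20 and plk1) and 2 lower (cdk1 and ccne2), where 25.6% of all tested genes were called higher, 27.5% lower and 53.1% in either direction. Of the 17139 tested genes that reached the filter level at 24 hpf, 20.9% were called higher and 33.6% lower. Their median log2 change was -0.39, beside 1.18 for the 9. The tail lay above all 3 samples of 24 hpf for 7 genes, ccna1 among them, and below them for 2, as it did for 42.2% and 44.9% of all tested genes. The median log2 change of the 10 was 1.32 beside -0.11 over all tested genes. Against the head, 9 of 10 were at least 4-fold higher in the tail, where 14.2% of genes with a count in either library were, from 22.2-fold for cdk1 to 396-fold for ccnb2, and ccne2 was the exception. Against the pool, 4 of 10 were at least 4-fold higher in the tail (16.6% of genes with a count in either library), namely ccnb1 with 5.16-fold, cdc20 with 5.14-fold, ccnb2 with 35.3-fold and ccna1, and ccne2 was 11.7-fold lower (19.9% of genes at least 4-fold lower). Against the larva, 8 of 10 were at least 4-fold higher in the tail (13.7% of genes), and cdk1 was 3.57-fold higher and ccne2 2.85-fold lower. The counts of higher genes against head, pool and larva all include ccna1. Oocyte markers stood beside these values. Of 22 listed genes 20 had a count in the tail, as did 20, 21 and 20 in the samples of 24 hpf. In the head 17 had a count, and in the larva and the pool 15 each. The list summed to 8345 CPM in the tail against 20.5 to 25.3 CPM at 24 hpf. It summed to 8.81 CPM in the head, 7.29 in the larva and 11.01 in the pool. The oocyte factor gene zar1 stood at 531 CPM in the tail, the egg coat gene zp3b at 958, bmp15 at 148 and mos, whose kinase holds the egg in metaphase in vertebrates, at 74.4. Of the 20 tested, 12 were under the filter level at 24 hpf, and the other 8 were all called higher in the tail, while 3 of them were called lower in the larva and 4 in the head. The 2 genes listed for the oocyte transcription factor figla had 0 counts in the tail, but the deposited FPKM of figla was 15.5 there, against 0.00687 ± 0.0119 at 24 hpf, and that of FIGLA (2 of 2) was 0. The part of oocytes in the tail values of the 10 genes was not tested.

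The tail calls of cdk1 and plk1, with log2 changes of -0.98 and 1.18, did not hold when some single 24 hpf samples were left out. Leaving out a sample also leaves fewer residual degrees of freedom, so dependence on that sample cannot be told apart from this. Without sample 1, the log2 changes of cdk1 and plk1 were -0.95 and 1.10 (adjusted p = 0.0747 and 0.0712 in edgeR's test), and without sample 2 that of plk1 was 1.04 (adjusted p = 0.0641). With library totals in place of TMM factors, which gave a median log2 change of 0.30 over all genes in the tail in place of -0.11, cdk1 was not called (-0.55, adjusted p = 0.117) and cdca8 was called higher (0.77, adjusted p = 0.0342).

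In the pool none of the 9 genes other than ccna1 was called, while 12.6% of all tested genes were, 6.56% higher and 6.05% lower. Of the tested genes that reached the filter level at 24 hpf, 6.3% were called higher and 7.4% lower. The log2 changes of the 9 ran from -1.07 for cdca8 to -0.23 for ccna2, and that of ccna1, with 2 counts in the pool, was -1.08. The median of the 10 was -0.61 beside -0.08 over all tested genes. The pool lay below all 3 samples of 24 hpf for 9 of the 10, ccna1 among them, as it did for 39% of all tested genes, and above them for 0, against 36.3%. At an unadjusted p under 0.05 there were 3 of the 9 other than ccna1, beside 32.2% of all tested genes. DESeq2 called 1, cdca8 (-1.06, adjusted p = 0.0370), beside 12.4% of all tested genes, and limma-voom called 0, with 3 genes called in all. Without sample 3 of 24 hpf edgeR called cdca8 too (-1.06, adjusted p = 0.0379), and leaving out each sample in turn gave 144 to 4825 called genes over the whole table in place of 2665. On the FPKM scale 5 of the 10 stood on the other side of 24 hpf in the pool, above its mean: plk1 with 142 FPKM against 77.9 ± 16.0, ccnb1 with 105.4 against 76.7 ± 8.63, cdc20 with 48.8 against 41.1 ± 7.29, cdca8 with 30.8 against 28.9 ± 2.22, and ccna1 with 0.239 against 0.174 ± 0.0627.

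These 5 genes and ccnb2 have another start or end position in the 24 hpf annotation, while cdk1, ccna2, ccne2 and aurkb have the same. There plk1 runs from 8229270 to 8237775, ccnb1 from 55149484 to 55153220 and cdca8 from 49493932 to 49503794. Whether this bears on the FPKM ratios of the 6 genes, here and above, was not tested. Over the 4 comparisons, the FPKM ratio to 24 hpf was 0.877 to 1.31 times the CPM ratio where start and end are identical (4 genes) and 1.25 to 4.27 times in the other 6. The annotation and the group cannot be told apart for these 6 genes in any comparison with 24 hpf. In the larva, head and tail both scales gave the same direction of change from 24 hpf for all 10 genes. This does not cover ratios between genes, such as ccnb1 to cdk1. In a fit of only the genes whose start and end are identical, cdk1, ccna2, ccne2 and aurkb were called lower in the larva and in the head.

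Among the 3 samples of 24 hpf, sample 2 was lowest for all 9 genes at 5 CPM or more and sample 3 highest for 8 of them, ccne2 being highest in sample 1. Over the 12361 tested genes at 5 CPM or more, sample 2 was lowest for 39.2% and sample 3 highest for 44.2%. The coefficient of variation of the 9 genes ran from 14.0% for cdk1 to 28.1% for plk1, with a median of 18.6%, beside 16.1% over all these genes.

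Annotated copies bear on 2 of the cyclins. A gene named CCNA2 (2 of 2) (ENSDARG00000089988, chromosome 14, 49280558 to 49286195) lies beside ccna2 and is unnamed in the 24 hpf annotation. It had 34.6 CPM in the pool, 6.68 in larvae, 1.47 in head and 100.2 in tail, against 67.4, 50.9 and 84.0 CPM at 24 hpf. It took 28.7% of the counts of both copies in the pool, 28.6% in larvae, 33.3% in head and 26.7% in tail, against 39.5% to 40.9% at 24 hpf. These shares are of counts, not scaled for length. Its FPKM, given with the cyclin shares, was near that of ccna2 in the pool, larva, head and tail. Non-unique alignments were counted apart from the genes, at 14.2% to 39.6% of a library and most in the tail. Reads that align to both copies could thus be missing from either, so the level of ccna2 is uncertain. A gene named CCNB1 (2 of 2) (ENSDARG00000089062, chromosome 18, 49491893 to 49496986), called zgc:103540 in the 24 hpf annotation, had 672 counts in the tail (75.6 CPM), 2 in the head, 1 in the larva and 0 in the pool, against 4, 6 and 6 counts at 24 hpf.

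Other genes of the pathway were followed through lists of its parts, to be read beside the shares of all tested genes: 25.6% higher and 27.5% lower in the tail, 32.2% and 30.4% in the head, and 26.5% and 23.9% in the larva. Over the tested genes that reached the filter level at 24 hpf, 20.9% were higher and 33.6% lower in the tail. These shares were 22.4% and 37.4% in the head, and 19.6% and 29.4% in the larva. The list of other cyclins does not hold ccne, CCNA2 (2 of 2) and CCNB1 (2 of 2), which are given above. Of its 17 genes, 4 (23.5%) were higher and 2 (11.8%) lower in the tail, 3 higher and 10 lower in the head, and 1 higher and 8 lower in the larva. Without ccnd3, 3 of 16 were higher and 2 lower in the tail, 3 and 9 in the head, and 1 and 7 in the larva. The cyclin D1 gene ccnd1, which acts in early G1, fell by 5.66 on the log2 scale in the tail (12.5 CPM against 631 ± 5.92 at 24 hpf, adjusted p = 6.11e-05 in edgeR's test) and by 4.36 in the head. The cyclin gene CCNJ rose by 2.77 in the tail. The cyclin gene ccnd3, also among the 4, was under the filter level at 24 hpf and stood at 9.33 CPM in the tail against 0.595 ± 0.204. The gene CCNB3, for the third B-type cyclin, stood at 25.9 CPM in the tail against 50.3 ± 17.5 at 24 hpf and was not called (adjusted p = 0.101), and in the head it fell to 2.62 CPM.

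Of 23 tested genes for other cyclin-dependent kinases and Cdk1 regulators, 3 were higher and 9 (39.1%) lower in the tail, 3 and 13 (56.5%) in the head, and 1 and 11 (47.8%) in the larva. Of the 23, wee2 and cdkn2b were under the filter level at 24 hpf. Among the other 21, 2 were higher and 9 lower in the tail, 1 and 13 in the head, and 1 and 11 in the larva. The kinase gene wee2, an inhibitor of Cdk1 known from oocytes, stood at 191 CPM in the tail against 0.168 ± 0.0267 at 24 hpf, where it was under the filter level, so that its call is no test. The related inhibitor gene PKMYT1 stood at 36.4 against 11.9 ± 0.354 CPM. The cdk2 gene, for the kinase that cyclin E binds, fell in the tail by 0.86 (47.00 against 85.2 ± 7.24 CPM, adjusted p = 0.0353), in the head by 5.14, in the larva by 2.76 and in the pool by 1.31 (adjusted p = 0.0332). The inhibitor gene cdkn1c fell by 5.82 in the tail and by 6.47 in the head. The call of ensab, named after its values were seen, goes against its FPKM: it was called lower in the larva and head, where it had 10.5 and 16.5 FPKM against 6.54 ± 1.67 at 24 hpf.

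A list of the anaphase-promoting complex and its inhibitors also held genes for activators, ubiquitin-conjugating enzymes, securin and separase. Of its 21 genes, 6 (28.6%) were higher and 3 (14.3%) lower in the tail, 0 and 18 (85.7%) in the head, and 1 and 17 (81.0%) in the larva. The inhibitor gene fbxo5 (Emi1) stood at 183 CPM in the tail against 37.5 ± 8.64 at 24 hpf (log2 change 2.29, SE 0.30, adjusted p = 0.000874), and FBXO43 (Emi2), whose product arrests the vertebrate egg in metaphase, at 81.5 against 1.73 ± 0.353 CPM. Of 12 genes of the spindle assembly checkpoint, 4 (33.3%) were higher in the tail, with BUB1 at 113 against 27.6 ± 7.31 CPM and mad1l1 at 76.2 against 21.3 ± 5.07. In the head 11 of the 12 (91.7%) were lower and in the larva 8 (66.7%).

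A list of passenger complex partners and other Aurora and Polo-like kinases also held further mitotic genes, such as nek2, tpx2 and SGOL1 (1 of 2). Of its 13 genes, 6 (46.2%) were higher and 1, SGOL1 (1 of 2), lower in the tail. In the head 2 were higher and 8 (61.5%) lower, and in the larva 1 and 8. Leaving out birc5b and cdca9, which were under the filter level at 24 hpf, 4 of 11 were higher in the tail. The Aurora A gene aurka stood at 236 CPM in the tail against 70.1 ± 20.1 at 24 hpf (log2 change 1.75, SE 0.32, adjusted p = 0.00384). The survivin gene birc5b stood at 82.3 CPM in the tail, against 0.309 ± 0.171 at 24 hpf, and the borealin-like gene cdca9 at 94.8 against 0.0654 ± 0.0328 CPM. Their paralogues birc5a and cdca8 were not called, at 27.4 CPM in the tail against 42.2 ± 11.8 at 24 hpf for birc5a. INCENP, the scaffold of the complex, stood at 224 against 75.2 ± 47.1 CPM and was not called either (adjusted p = 0.0713). The FPKM of plk1 was 4.36 times that of aurkb in the pool, 4.58 in larvae, 5.40 in head and 10.2 in tail, and 1.70 ± 0.271 times at 24 hpf, where the annotated interval of plk1 is another. In CPM, plk1 and aurkb stood at 0.692 and 0.813 times their 24 hpf means in the pool and 0.151 and 0.144 in larvae. They stood at 0.0177 and 0.0200 in the head, and 2.27 and 1.04 in the tail.

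Of 28 spindle and kinetochore genes, 12 (42.9%) were higher and 2 (7.1%) lower in the tail, and 27 (96.4%) were lower in the head and 23 (82.1%) in the larva. Of these 2, CKAP5 (1 of 2), had 0 counts in the tail but 56.2 FPKM there, against 7.52 ± 1.78 at 24 hpf, so the 2 deposited values go opposite ways. The kinesin gene KIF20B and the kinetochore gene CENPT rose by 2.49 and 2.24 on the log2 scale in the tail. Of 24 genes of condensin, cohesin and topoisomerase, 2 (8.3%) were higher and 3 (12.5%) lower in the tail, 3 and 16 (66.7%) in the head, and 3 and 12 in the larva. Without smc1a, which was under the filter level at 24 hpf, 2 of 23 were higher in the head and 2 of 23 in the larva. The DNA replication list had 5 of 31 genes (16.1%) higher and 12 (38.7%) lower in the tail, with a median log2 change of -0.52, against 0.75 for spindle and kinetochore. Within it gmnn, for the replication inhibitor geminin, rose by 2.96 and the helicase-like gene mcm6l by 7.57, while MCM3 (2 of 2) fell by 7.06. The gene mcm6 went the other way from mcm6l, at 3.79 FPKM in the tail against 77.5 ± 14.5 at 24 hpf. For mcm6l these values were 74.5 against 0.303 ± 0.164 FPKM. The lower call of TK1 (2 of 2) in the tail goes with an FPKM that hardly differs, 5.68 in the tail against 5.54 ± 0.551 at 24 hpf. All 31 genes of the replication list, which also holds a marker of dividing cells, were lower in the head and 28 in the larva.

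**Figure D4:**
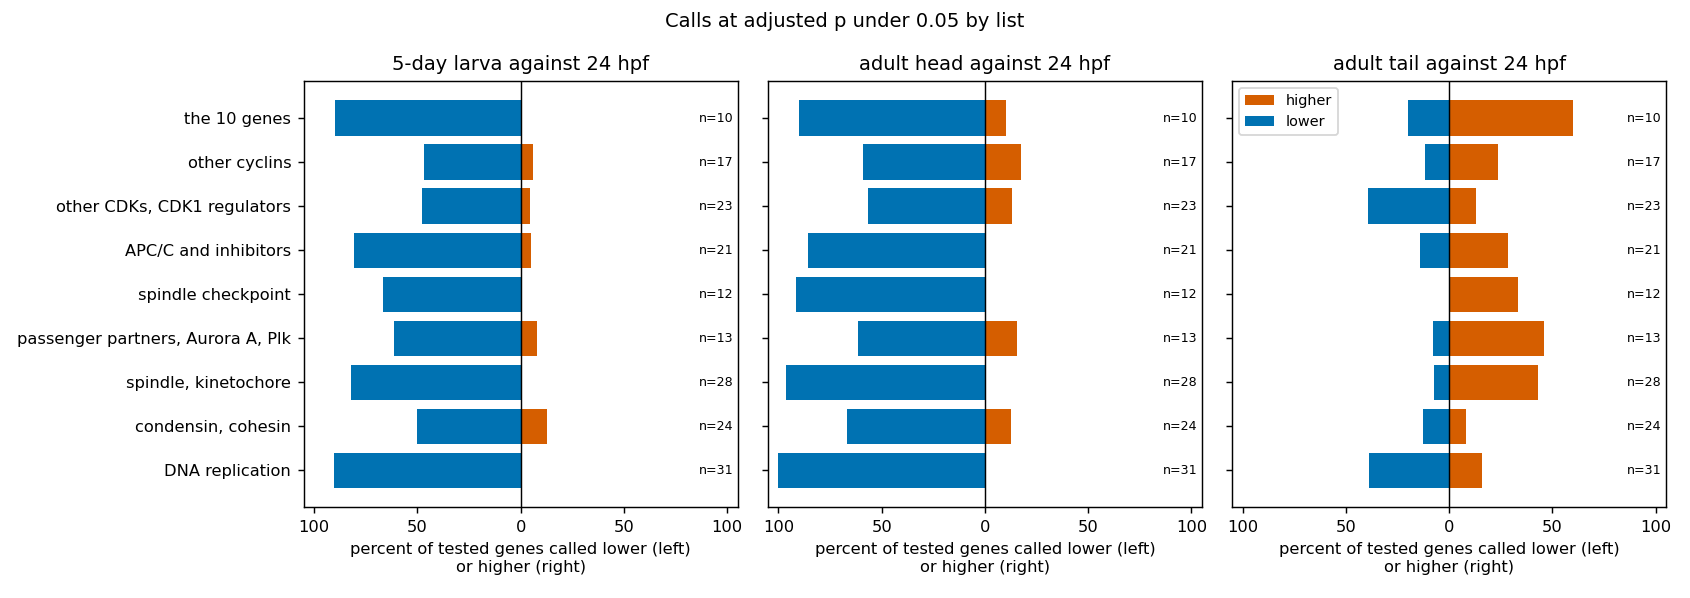
Percent of the tested genes of each list called higher (right) or lower (left) than 24 hpf embryos in the larva, head and tail. The number tested is given as n. Genes under the filter level at 24 hpf, whose calls are no test, are included in the bars. Among them, ccna1 is the 1 higher gene of the 10 in the head and 1 of the 6 in the tail. In the head most bars point to lower, as for 27 of 28 spindle and kinetochore genes and 31 of 31 genes of the replication list. In the tail the spindle and kinetochore list had 12 of 28 higher and the replication list 12 of 31 lower.

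For each of the 10 genes the 2 genes with the most similar profile over the 5 groups were sought by the root mean square difference of centred log2 values. The closest pairs were aurkb with the kinesin gene KIF20A (0.0493) and the cohesin acetyltransferase gene esco2 (0.0804), and ccna2 with depdc1a (0.0967) and the licensing gene cdt1 (0.124). Next came cdca8 with the checkpoint gene mad2l1 (0.104) and CCNA2 (2 of 2) (0.156), and plk1 with dtl (0.114) and aurka (0.297). Then followed ccne2 with naprt1 (0.138) and E2F2 (0.151), and cdk1 with mms22l (0.199) and the helicase gene mcm4 (0.199). Many genes lay near some profiles: of 13530 candidates, 73 were within 0.5 of cdk1, 72 of ccne2, 66 of aurkb and 55 of cdca8. For ccnb2 it was 1. The profile of cdc20 was nearest to cdt1 (0.186) and fbxo5 (0.189), and that of ccnb1 to fbxo5 (0.245) and aurka (0.253). The genes nearest to ccna1 were zorba (0.336), listed in RefSeq as cpeb1b, and the chitinase gene chia.4 (0.344), and for ccnb2 they were the kinase gene nek2 (0.476) and gmnn (0.570). Within the 10, the closest profiles were those of ccnb1 and cdc20 (0.165), the passenger genes aurkb and cdca8 lay 0.361 apart, and ccna1 was farthest from its nearest neighbour ccnb2 (2.19).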

How the data were processed

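RNA from 7 libraries was sequenced, per the labels' protocols after Trizol extraction and Illumina TruSeq mRNA preparation. The authors deposited a read count per gene and an FPKM value per gene for each. The submitters' processing notes name CASAVA 1.4, TopHat 1.4.1, Bowtie 0.12.7, HTSeq 0.5.3p3, Cufflinks 1.3.0 and the Zv9 build. Files of 24 hpf list 28491 gene IDs and the others 32313, so the 28364 shared IDs were used. Rows that name no gene were left out; non-unique alignments made up 14.2% to 39.6% of a library.

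Counts were fitted in R 4.3.3 with edgeR 4.0.16 (TMM, filterByExpr with a minimum count of 10, glmQLFit and glmQLFTest, 5 groups, 2 residual degrees of freedom), with Benjamini-Hochberg adjustment, after the code was tested on simulated data. The filter asks for 0.92 CPM in at least 1 library, so a gene under that level in all samples of 24 hpf entered the test through the others and its values are given with no test. Counts over the lists include such genes unless the text leaves them out. The SE is the log2 change divided by the root of F. DESeq2 1.42.0 and limma 3.58.1 were alternatives. Between single libraries, ratios of CPM carry exact 95% conditional binomial intervals and no test. Profiles were compared on log2(CPM + 0.5), for genes with a mean of at least 5 CPM.

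The 10 genes and all lists were chosen with earlier results of these data known. Per pathway list and comparison, at most the 2 largest called rises and the 2 largest called falls are named besides the 10. A fixed set of partners is named too (cdk2, ccne1, ccnb3, aurka, incenp, birc5a, birc5b, fbxo5 and wee2). A symbol holding a colon or an Ensembl ID did not count as a name. The oocyte, blood, muscle, retina and yolk markers were picked outside this rule, as were ensab, mcm6 and TK1 (2 of 2). Of 16 sample records, 12 are of 24 hpf, 4 for each of the 3 samples. The 9 without a file are further records of these same 3 samples, not further samples, and were not analysed here. Promoter and protein sequences were not used here.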

Additional observations from a re-analysis of the deposited data

How the results depend on the processing

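No paired analysis was possible because the groups set against 24 hpf have 1 library each and share fewer than 2 replicate numbers with it. Over the alternatives run, the log2 change of each of the 9 genes other than ccna1 in the larva and head kept its direction and its side of the threshold. The fit of genes with an identical interval held only 4 of these. The change of ccna1, which has no test, kept its direction where it was fitted. In the tail aurkb, which was not called, turned to -0.047 without sample 2 of 24 hpf (up to 0.15 when other samples were left out), and in the pool ccna2 turned to 0.044 with library totals. Joining the pool to 24 hpf gave adjusted p = 0.238 for cdk1 and 0.0516 for plk1 in the tail in edgeR's test. The cause was not tested.

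With the genes of identical interval only, which leaves 4 of the 10 and fewer genes to test, 4 were called in larvae, 4 in head and 3 in tail, and 4874, 6093 and 4976 genes in all, with 1049 in the pool. With the pool joined to 24 hpf, 3799 genes were called in larvae, 8359 in head and 6671 in tail. In the pool DESeq2 called 1 of the 9 genes other than ccna1, and limma-voom called 3 genes in all. Leaving out 1 sample of 24 hpf gave 0 to 1 of these 9 and 144 to 4825 genes. Library totals raised the share of higher calls to 69.01% in larvae, 64.9% in head, 60.6% in tail and 72.7% in the pool, where TMM gave 52.6%, 51.4%, 48.2% and 52.01%. They moved the median log2 change of all genes to 0.44 in larvae, 0.53 in head, 0.30 in tail and 0.16 in the pool.

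Replicates exist only at 24 hpf, and depth, annotation and group move together in each comparison with it. The head held 12 to 45 counts per gene, which limits the precision of its folds.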
